A study of Mus musculus with 8 samples.

Results

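The genes described here make up the latent TGF-beta machinery: the 3 ligands Tgfb1, Tgfb2 and Tgfb3, the 4 latent TGF-beta binding proteins (LTBPs) Ltbp1 to Ltbp4, and the 3 receptors Tgfbr1, Tgfbr2 and Tgfbr3. They were listed by name, and the rule uses no measured value, but the list was drawn up with earlier results of these data known. All 10 were found among the 56953 gene identifiers of the count files, and all 10 had enough counts to be tested. RNA came from whole liver of male mice kept for 8 weeks on CDHFD, a high-fat diet lacking choline that produces fatty liver with fibrosis. There were 4 control libraries of wild-type genotype and 4 HSC-PCK1-KO libraries, in which PCK1, an enzyme of gluconeogenesis, was knocked out in hepatic stellate cells (HSC). The mice were adult, and the study calls the 4 libraries of a group biological replicates. No source used here gives the strain, the exact age, the Cre driver or the alleles. The study's title concerns liver fibrosis after loss of PCK1 in these cells, and the comparison of genotypes asks whether RNA of the latent TGF-beta genes differed with it. All mice received the diet, so nothing here shows what the diet itself did.

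Every TGF-beta ligand is made as a precursor whose cut propeptide stays wrapped around the growth factor and keeps it silent. In most cells an LTBP is bound to that propeptide before secretion and ties the complex to fibrillin and fibronectin in the matrix, from which integrins or proteases free the ligand. The freed ligand binds TGFBR2, which recruits and phosphorylates TGFBR1, the kinase that activates SMAD2 and SMAD3, while TGFBR3 (betaglycan) is a co-receptor that presents ligand, TGF-beta 2 above all. In fibrotic liver this pathway is known for driving stellate cells to become matrix-producing myofibroblasts. Much of its control lies in release of stored protein, which RNA counts do not measure.

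One route of release depends on a short sequence in the propeptide, the codons for arginine, glycine and aspartate that integrins of the alpha V class grip. The coding stretches that hold them are shown because they part the ligands by how they can be freed. They were read 5′ to 3′ from the GENCODE M21 transcripts, with the codons for the tripeptide in capitals.
Tgfb1: cccaaacgtCGGGGCGACctgggcacc
Tgfb3: gaccatggcCGTGGAGACctggggcgt
The longest reading frames of the protein-coding Tgfb2 transcripts held 0 such stretches in frame, so Tgfb2 has no sequence to show here. The ligand without the motif was also the one with the lowest RNA level in these livers, and no link between them was tested.

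RefSeq promoter windows were shown for Ltbp4 and Tgfbr2 because these members had the smallest p-values between genotypes. Each window runs from 250 bases before to 50 bases after the start site, 5′ to 3′ on the gene's strand, in build GRCm38.p6, which is not the GRCm39 build named for the counts. Capitals mark CAGAC or its complement GTCTG, the box that SMAD proteins bind, and the GC box GGGCGG or CCGCCC bound by SP1-like factors, both strands being searched and overlaps counted.
Ltbp4, upstream start (chr7:27337563-27337862, minus strand): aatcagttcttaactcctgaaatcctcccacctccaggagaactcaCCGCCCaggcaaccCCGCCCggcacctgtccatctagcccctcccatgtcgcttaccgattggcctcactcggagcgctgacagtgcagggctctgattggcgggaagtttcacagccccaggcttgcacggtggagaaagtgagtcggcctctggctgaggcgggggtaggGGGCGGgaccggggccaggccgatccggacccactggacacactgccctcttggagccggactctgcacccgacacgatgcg
Ltbp4, downstream start (chr7:27333614-27333913, minus strand): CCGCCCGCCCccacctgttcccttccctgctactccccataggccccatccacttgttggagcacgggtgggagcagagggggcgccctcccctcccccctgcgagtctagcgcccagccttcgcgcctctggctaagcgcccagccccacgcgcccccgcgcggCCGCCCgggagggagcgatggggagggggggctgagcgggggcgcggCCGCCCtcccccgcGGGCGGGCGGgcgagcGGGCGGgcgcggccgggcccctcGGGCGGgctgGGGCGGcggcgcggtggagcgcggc
Tgfbr2 (chr9:116175314-116175613, minus strand): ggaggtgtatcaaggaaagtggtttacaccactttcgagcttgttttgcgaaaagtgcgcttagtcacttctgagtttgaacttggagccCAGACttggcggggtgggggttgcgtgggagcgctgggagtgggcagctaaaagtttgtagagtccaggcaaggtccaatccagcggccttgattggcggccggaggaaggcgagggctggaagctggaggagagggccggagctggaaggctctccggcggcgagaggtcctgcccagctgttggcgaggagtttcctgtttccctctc
Ltbp4 has separate starts that give longer and shorter forms of the protein, and a count per gene adds them together. Neither Ltbp4 window shown held a CAGAC box, the upstream one held 3 GC boxes and the downstream one 9. Another Ltbp4 window (chr7:27333599-27333898), not shown because it overlaps most of the downstream one, held 0 CAGAC boxes and 7 GC boxes. The Tgfbr2 window held 1 CAGAC box and 0 GC boxes. Over all 32817 windows of this length, 49.6% held a CAGAC box and 35.6% a GC box, so either is common. Of the 10 genes, 8 had a window, Tgfb3 and Tgfbr3 being the others. Of their 12 windows, 7 held a CAGAC box and 6 a GC box, the overlapping Ltbp4 windows being counted separately.

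The 8 libraries held 44695439 to 49477255 counts each. Alb and the other hepatocyte markers were abundant, 8 of 8 being tested, with a summed level of 90467 to 111313 CPM (counts scaled to a common library total and by TMM factors) in control libraries against 88986 to 108311 CPM in those of HSC-PCK1-KO mice, as a liver label requires. The 10 quiescent stellate cell markers summed to only 327 to 365 CPM in control libraries against 294 to 339 CPM in those of HSC-PCK1-KO mice. In whole liver, fewer cells of a type and less RNA per cell cannot be told apart, and this holds for every value below. Pck1, the targeted gene, ranged from 551 to 2012 CPM with control genotype and from 339 to 948 CPM with HSC-PCK1-KO, and since hepatocytes express it strongly, its level is no check of the stellate cell knockout. No gene of the 15669 tested passed edgeR's quasi-likelihood test at the adjusted threshold of 0.05 (0% called), and 2.36% had an unadjusted p under 0.05.

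No ligand, LTBP or receptor passed between genotypes. Of the 10 members, 9 had a negative log2 fold change (HSC-PCK1-KO minus control) and 1, Tgfb2, a positive one, with a median of -0.20, where 51.8% of all genes tested were negative and their median was -0.0055. The count of 9 became 6 when control replicate 4 was left out, and 8 when HSC-PCK1-KO replicate 1 was. One member, Ltbp4, had an unadjusted p under 0.05 and groups that did not overlap, against 2.36% and 1.53% of all genes tested. For 9 of the 10 the 95% interval reached neither a 2-fold fall nor a 1.5-fold rise. The interval of Tgfb2 excluded a 2-fold fall but not a 2-fold rise.

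**Figure D1:**
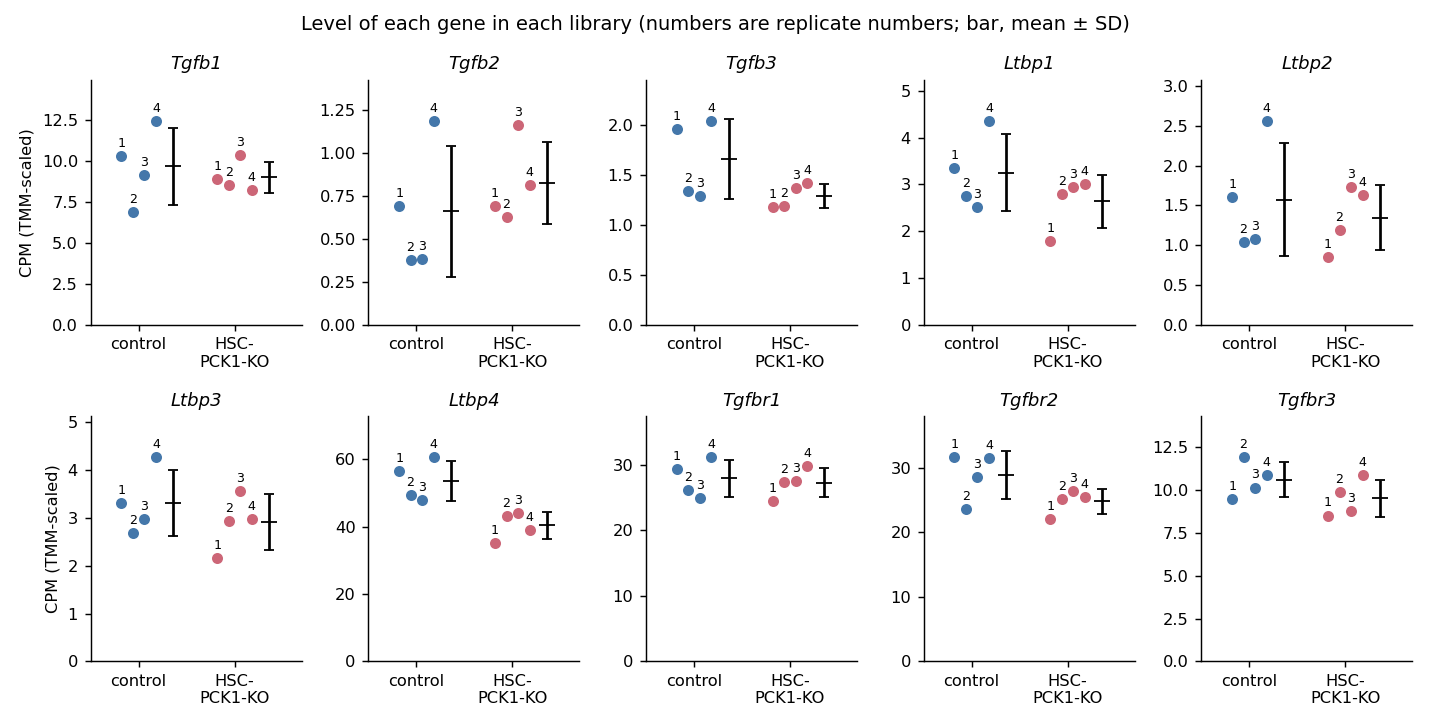
Level of each of the 10 genes in each library, in CPM on a linear axis from 0, with blue points for control, red points for HSC-PCK1-KO, replicate numbers above the points and a bar for mean ± SD (n = 4). Ltbp4 is the gene whose 4 HSC-PCK1-KO points (35.3 to 44.2 CPM) all lie under its 4 control points (48.0 to 60.6 CPM).

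Tgfb1 (ENSMUSG00000002603.16), the ligand most studied in fibrosis and made by macrophages, platelets and stellate cells among others, had 10.3, 6.86, 9.13 and 12.5 CPM in control replicates 1 to 4. In HSC-PCK1-KO replicates 1 to 4 it had 8.94, 8.53, 10.4 and 8.25 CPM. The HSC-PCK1-KO values all lay within the control range, whose lowest and highest points were control replicates 2 and 4. Recruited macrophage markers, 8 of 9 negative with none at 0, had their lowest and highest sums in the same libraries (47.9 and 258 CPM), against 66.8 to 161 CPM for HSC-PCK1-KO. This was not particular to the macrophage list, since the sum of portal fibroblast markers (41.1 and 117 CPM), mostly Gas6 (25.8 and 83.5 CPM), had the same end libraries. So had the sum of cholangiocyte markers (28.6 and 138 CPM). That sum was mostly Spp1 (19.8 and 131 CPM), which is listed for macrophages too, so it is not separate from theirs. Of the other cholangiocyte markers, Krt19, Krt7 and Epcam were lower in control replicate 2 than in control replicate 4, and Sox9 was higher (6.86 and 3.81 CPM). The part of any of these cells in the Tgfb1 values was not tested. The means were 9.69 ± 2.34 CPM for control and 9.02 ± 0.94 CPM for HSC-PCK1-KO (SD, n = 4). The log2 fold change was -0.11 (SE 0.16, 95% interval -0.47 to 0.26), with edgeR's adjusted p at 0.9998. It was 0.042 without control replicate 4. Tgfb1 RNA was therefore neither shown to differ nor shown to be equal, and ratios of HSC-PCK1-KO to control under 0.722 lay outside the interval.

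Tgfb3 (ENSMUSG00000021253.8), a ligand expressed by mesenchymal cells, had 1.97, 1.34, 1.29 and 2.05 CPM in the control libraries. It had 1.18, 1.19, 1.37 and 1.42 CPM in the HSC-PCK1-KO libraries. Control replicates 1 and 4 lay above all 4 HSC-PCK1-KO libraries, and control replicates 2 and 3 lay among them. Tgfb3 had a log2 fold change of -0.37 (SE 0.20, 95% interval -0.82 to 0.087), next to that of Ltbp4 the farthest below 0 of the 10, and edgeR's adjusted p was 0.9998. Its counts were 53 to 107 per library, and it ran from -0.47 without control replicate 3 to -0.25 without control replicate 4.

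Tgfb2 (ENSMUSG00000039239.15), the ligand that needs betaglycan most, was the scarcest member, with 16 to 62 counts per library. It had 0.69, 0.38, 0.38 and 1.19 CPM in replicates 1 to 4 of control, and 0.69, 0.62, 1.16 and 0.81 CPM in those of HSC-PCK1-KO. The groups overlapped over most of their range, with control replicate 4 highest of all. The log2 fold change of 0.31 (SE 0.38) had a 95% interval from -0.54 to 1.16, the widest of the 10, and ran from 0.095 without HSC-PCK1-KO replicate 3 to 0.76 without control replicate 4. An opposite-strand transcript, Gm29491, shares 2.14% of the exon bases of Tgfb2, but stood at no more than 0.042 CPM in any library.

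Ltbp4 (ENSMUSG00000040488.19) was the member whose groups separated. Its protein binds latent TGF-beta 1 weakly compared with LTBP1 and LTBP3 and is also needed for assembly of elastic fibres. In control replicates 1 to 4 it stood at 56.5, 49.5, 48.0 and 60.6 CPM. In HSC-PCK1-KO replicates 1 to 4 it stood at 35.3, 43.1, 44.2 and 39.0 CPM. Every HSC-PCK1-KO library was below every control library, the gap between the nearest ones, control replicate 3 and HSC-PCK1-KO replicate 3, being smaller than the SD of either group. The means were 53.6 ± 5.96 and 40.4 ± 4.08 CPM (SD, n = 4). The log2 fold change was -0.41 (SE 0.099, 95% interval -0.63 to -0.19), a level 24.7% lower. Ltbp4 stood at rank 13 of all genes ordered by p, and its adjusted p in edgeR was 0.9998. It was also the member best supplied with counts, 1579 to 3167 per library, and over its 16 alternatives the fold change stayed between -0.46 and -0.34, with adjusted p from 0.2535 in DESeq2 to 1.

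Markers of mesothelium, the cell layer of the liver capsule, also stood lower in the HSC-PCK1-KO libraries. All 7 were tested, 7 of 7 were negative, and none was at 0 in all libraries. Their summed level was 13.8, 6.65, 5.96 and 13.9 CPM in control replicates 1 to 4 and 3.08, 4.14, 5.03 and 5.79 CPM in HSC-PCK1-KO replicates 1 to 4, so these groups did not overlap either. Their defining genes Upk3b and Msln stood at 3.37 ± 1.68 and 2.16 ± 0.95 CPM for control and at 0.97 ± 0.21 and 0.80 ± 0.25 CPM for HSC-PCK1-KO (SD, n = 4). The part of mesothelial or stellate cell content in the Ltbp4 difference was not tested.

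Ltbp1 (ENSMUSG00000001870.17), which binds all 3 latent ligands and anchors them in the matrix, had 3.35, 2.76, 2.52 and 4.37 CPM in the control libraries. It had 1.79, 2.80, 2.95 and 3.01 CPM in the HSC-PCK1-KO libraries. HSC-PCK1-KO replicate 1 was the lowest and control replicate 4 the highest, with the other 6 libraries between 2.52 and 3.35 CPM. The log2 fold change of -0.30 (SE 0.22) became -0.12 when control replicate 4 was left out and -0.16 when HSC-PCK1-KO replicate 1 was, so it rested on those 2 libraries.

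Ltbp3 (ENSMUSG00000024940.12), known for its role in bone and tooth, had 3.31, 2.69, 2.98 and 4.27 CPM in control replicates 1 to 4, and 2.17, 2.94, 3.57 and 2.99 CPM in HSC-PCK1-KO replicates 1 to 4. The same control replicate 4 was highest and HSC-PCK1-KO replicate 1 lowest, and the groups overlapped. Its log2 fold change of -0.18 (SE 0.19) became -0.036 when control replicate 4 was left out and -0.069 when HSC-PCK1-KO replicate 1 was.

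Ltbp2 (ENSMUSG00000002020.16), which binds fibrillin but not the latent ligands, had 1.60, 1.04, 1.08 and 2.57 CPM in control replicates 1 to 4, and 0.85, 1.19, 1.72 and 1.63 CPM in HSC-PCK1-KO replicates 1 to 4. The groups overlapped, with control replicate 4 above the rest. Its log2 fold change of -0.23 (SE 0.33) turned to 0.12 when control replicate 4 was left out and became -0.064 when HSC-PCK1-KO replicate 1 was. Control replicate 4 and HSC-PCK1-KO replicate 1 thus held the ends of the range in Ltbp1, Ltbp2, Ltbp3 and Ltbp4 alike, and Ltbp4 had -0.34 and -0.35 when one or the other was left out. The same libraries were the ends of the summed level of activated stellate cell markers. It was 218 CPM in control replicate 4 and 71.5 CPM in HSC-PCK1-KO replicate 1. Most of it was Col1a1, Col1a2 and Col3a1, at 42.5, 52.3 and 88.1 CPM in control replicate 4 and 7.68, 14.7 and 28.5 CPM in HSC-PCK1-KO replicate 1. Acta2, Postn, Tagln, Lox and Timp1 were not lowest in HSC-PCK1-KO replicate 1, where Acta2 (4.24 CPM) was the highest of its group. Of the 8 activated stellate cell markers tested, 7 were negative and none was at 0. Their sums were 78.1 to 218 CPM for control and 71.5 to 135 CPM for HSC-PCK1-KO, and their part in the LTBP values was not tested.

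Tgfbr2 (ENSMUSG00000032440.14), the receptor that binds ligand first, had 31.7, 23.7, 28.6 and 31.5 CPM in the control libraries. It had 22.1, 25.1, 26.4 and 25.5 CPM in the HSC-PCK1-KO libraries. Of the control libraries 3 lay above all HSC-PCK1-KO libraries, and control replicate 2 lay among them. The log2 fold change was -0.22 (SE 0.10), with a 95% interval from -0.44 to 0.0031 and edgeR's adjusted p at 0.9998, and leaving out 1 library moved it between -0.30 (control replicate 2) and -0.17 (HSC-PCK1-KO replicate 1).

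Tgfbr1 (ENSMUSG00000007613.16), the signalling kinase, had 29.3, 26.1, 24.9 and 31.1 CPM in control replicates 1 to 4, and 24.4, 27.4, 27.5 and 29.8 CPM in HSC-PCK1-KO replicates 1 to 4. The groups lay over each other. Its log2 fold change of -0.033 (SE 0.090, 95% interval -0.23 to 0.17) was the nearest to 0 of the 10, and the interval spans ratios of HSC-PCK1-KO to control from 0.852 to 1.12. The sign changed when control replicate 4 (0.026) or HSC-PCK1-KO replicate 1 (0.015) was left out.

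Tgfbr3 (ENSMUSG00000029287.15), betaglycan, had 9.50, 11.9, 10.1 and 10.9 CPM in control replicates 1 to 4, and 8.51, 9.86, 8.77 and 10.9 CPM in HSC-PCK1-KO replicates 1 to 4. Control replicate 2, low in most other members, was its highest library, and the groups overlapped. Its log2 fold change was -0.16 (SE 0.11), with a 95% interval from -0.40 to 0.082.

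**Figure D2:**
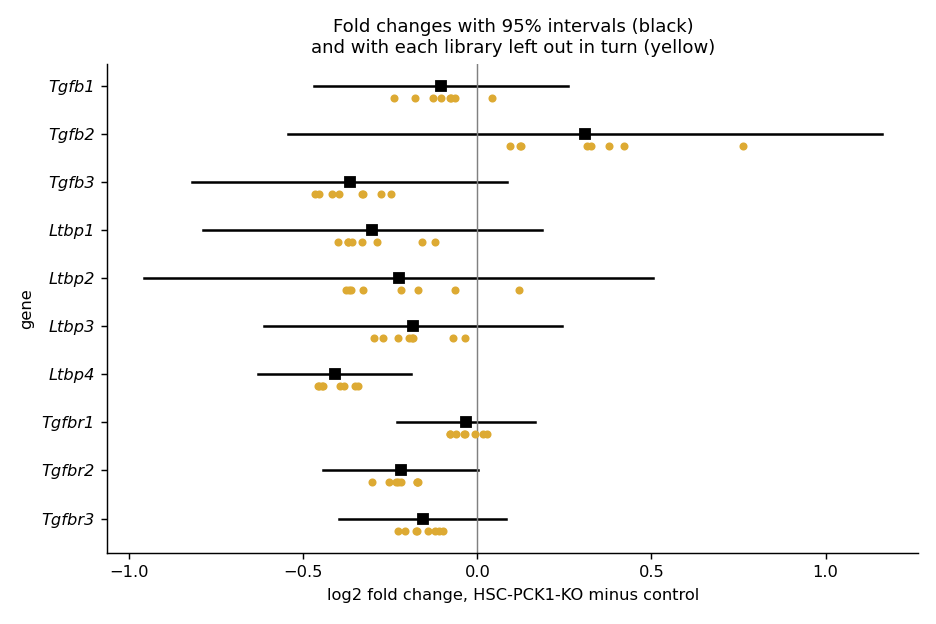
Log2 fold change of each gene (black square) with its 95% interval (black line), and the value with each of the 8 libraries left out in turn (yellow points), HSC-PCK1-KO minus control. The interval of Ltbp4 (-0.63 to -0.19) is the one that does not reach 0, and that of Tgfb2 (-0.54 to 1.16) is the widest.

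Per kilobase of exon, Ltbp4 was the highest of the 10 in every library, at 8.30 ± 0.92 CPM per kilobase for control and 6.25 ± 0.63 for HSC-PCK1-KO (SD, n = 4). Tgfbr1 followed at 4.27 ± 0.44 and 4.17 ± 0.34, and Tgfbr2 at 3.53 ± 0.45 and 3.03 ± 0.23. Ltbp4 and Tgfbr1 did not overlap over the 8 libraries, whereas the ranges of Tgfbr1 and Tgfbr2 overlapped, though Tgfbr1 was the higher of the pair in 8 of 8.

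Next came Tgfb1 at 1.92 ± 0.46 and 1.79 ± 0.19 CPM per kilobase and Tgfbr3 at 1.62 ± 0.16 and 1.45 ± 0.17, a pair whose ranges overlapped and whose order held in 6 of 8 libraries. Over the 8 libraries Tgfbr2 did not overlap Tgfb1, and Tgfbr3 did not overlap Tgfb3. The other 5, Tgfb3, Ltbp3, Ltbp1, Ltbp2 and Tgfb2 in falling order, lay between 0.065 and 0.61 CPM per kilobase, and each overlapped the next in that order. The order of the means was the same in both genotypes. With the longest annotated transcript as the length in place of all exons, 6 of the 10 kept their rank in control, Tgfb1 passing Tgfbr2 and Ltbp3 passing Tgfb3. In HSC-PCK1-KO Ltbp1 (0.395 CPM per kilobase) also passed Tgfb3 (0.382) by that length.

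**Figure D3:**
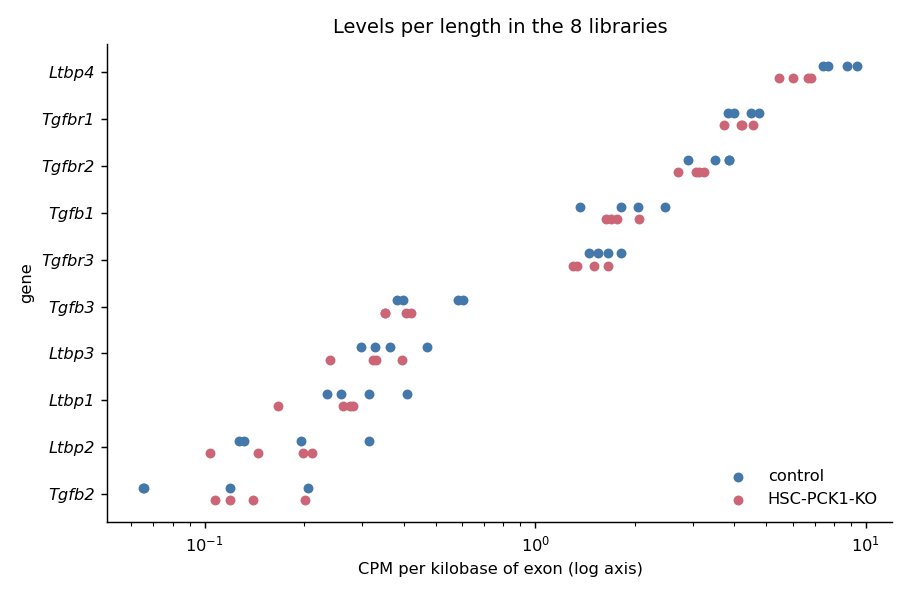
Level per length of each gene in the 8 libraries, in CPM per kilobase of exon on a log axis, blue for control and red for HSC-PCK1-KO. Ltbp4 stands highest, between 5.46 and 9.38, and Tgfb2 lowest on average, between 0.065 and 0.20.

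The make-up of each family followed from these levels. Ltbp4 gave 88.2% to 91.8% of the summed LTBP level per length over the 8 libraries, so the RNA for binding proteins in these livers was mostly that of Ltbp4. Tgfb1 gave 74.4% to 80.2% of the ligand level, Tgfb3 15.2% to 21.8% and Tgfb2 2.91% to 7.55%. The ligand shares depend on the length used, and with the longest transcript they were 84.7% to 88.6% for Tgfb1, 8.69% to 12.7% for Tgfb3 and 1.86% to 4.88% for Tgfb2. Among the receptors, Tgfbr1 gave 45.8%, 45.9%, 43.0% and 46.4% in control replicates 1 to 4 and 48.3%, 47.8%, 47.9% and 48.8% in HSC-PCK1-KO replicates 1 to 4. Those Tgfbr1 shares did not overlap between genotypes, while the shares of every other member did. The levels of Tgfbr1 itself also overlapped (log2 fold change -0.033). How often such shares separate among other genes was not computed. The Tgfbr2 shares did overlap, at 33.2% to 39.5% for control and 33.4% to 36.8% for HSC-PCK1-KO. So did the Tgfbr3 shares, at 14.8% to 20.9% for control and 15.3% to 17.8% for HSC-PCK1-KO. A share of 1 receptor depends on the level of all 3, and no share was tested. The shares are of RNA per length and say nothing of protein.

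The members were not independent across libraries. Of their 45 pairs, 43 had a positive Pearson's r of log2 CPM over the 8 libraries, with a median of 0.726, and 6 passed an exact permutation test after adjustment over the 45. All 6 lay among Tgfb3, Ltbp1, Ltbp2, Ltbp3 and Tgfbr1. Pairs of other genes were not counted in this way, so these counts are not shown to be particular to the members. Ltbp1 and Tgfbr1 had r = 0.898 (exact permutation p = 0.000372, adjusted p = 0.0159 over 45 pairs, Spearman's rho = 0.976, exact permutation p = 0.0003968), and 0.891 without the 2 libraries farthest from the median of Ltbp1. Each other passing pair was lower without the 2 libraries farthest from the median of its first gene. Ltbp1 with Ltbp3 went from 0.928 to 0.516, Tgfb3 with Ltbp1 from 0.823 to 0.684 and Ltbp1 with Ltbp2 from 0.914 to 0.779. Ltbp2 with Ltbp3 went from 0.937 to 0.810 and Ltbp2 with Tgfbr1 from 0.915 to 0.807. Ltbp4 and Tgfbr2 had r = 0.838 (exact permutation p = 0.01121, adjusted p = 0.05045, Spearman's rho = 0.714, exact permutation p = 0.05759), which fell short, with 0.614 when such libraries were left out. Tgfbr3 was the member apart, with r from -0.354 with Tgfb1 to 0.473 with Ltbp1.

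Col1a1, a type I collagen chain and a readout of fibrosis chosen here after the data were seen, was used to ask which members tracked matrix production. Of the 10 relations, 8 passed at an adjusted p of 0.05 by Pearson's r and 0 by Spearman's rho. The share of all genes tested that would pass against Col1a1 was not computed. The count of 8 is therefore not shown to be particular to these members. Ltbp3 had r = 0.948 (exact permutation p = 0.00129, adjusted p = 0.009301, rho = 0.881, exact permutation p = 0.007242, adjusted p = 0.05357), and 0.773 without control replicate 4 and HSC-PCK1-KO replicate 1, the libraries at the ends of the Col1a1 range. Tgfbr2 had r = 0.887 (exact permutation p = 0.00372, adjusted p = 0.009301, rho = 0.857, exact permutation p = 0.01071, adjusted p = 0.05357) and 0.737 without them. Tgfb1 had r = 0.739 (exact permutation p = 0.03767, adjusted p = 0.04709, rho = 0.786, exact permutation p = 0.02793, adjusted p = 0.05585) and 0.898 without them. The others that passed were lower without those libraries, at 0.565 from 0.911 for Ltbp1, 0.627 from 0.883 for Ltbp2, 0.481 from 0.807 for Tgfbr1 and 0.480 from 0.752 for Tgfb3.

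Ltbp4 had r = 0.747 with Col1a1 (exact permutation p = 0.03219, adjusted p = 0.04599, rho = 0.690, exact permutation p = 0.06939, adjusted p = 0.08674), but 0.182 without those libraries. Leaving out the ends of the Col1a1 range can by itself lower r, so the fall cannot show that the relation rested on them. Tgfbr3 had r = 0.165 (exact permutation p = 0.6959, adjusted p = 0.6959, rho = -0.071, exact permutation p = 0.882, adjusted p = 0.882), and -0.857 without those libraries. Each genotype has too few libraries for a relation of its own.

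**Figure D4:**
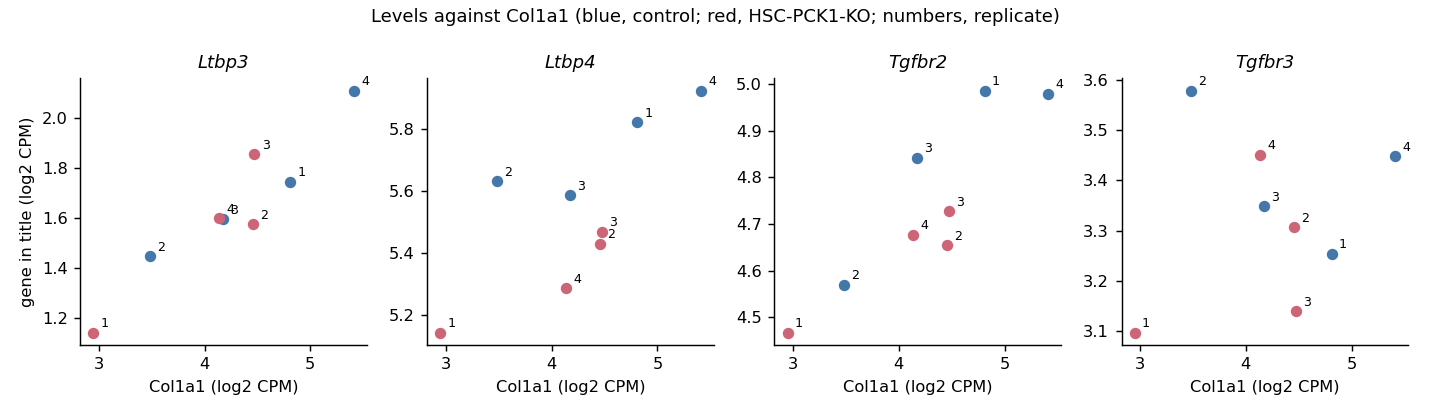
Log2 CPM of Ltbp3, Ltbp4, Tgfbr2 and Tgfbr3 (vertical axes) against log2 CPM of Col1a1 (horizontal axes) in the 8 libraries, blue for control and red for HSC-PCK1-KO, with replicate numbers. Ltbp3 climbs with Col1a1 over both genotypes (r = 0.948), the red points of Ltbp4 lie under the blue ones, and Tgfbr3 shows no such slope (r = 0.165).

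The genes with the profile most like each member over the 8 libraries were taken from 11551 tested genes with a mean of at least 1 CPM, as a description with no test. Those nearest to Ltbp4 were Lamb1, a laminin chain of basement membrane (r = 0.975), Gria3 (0.961) and Ralgps1 (0.954). Those nearest to Ltbp1 were Mrc2, a collagen uptake receptor (0.985), Pdgfra, a receptor of fibroblasts (0.982), and Nedd9 (0.979). Those nearest to Tgfb3 were Hspg2, the basement membrane proteoglycan perlecan (0.997), Sulf1 (0.985) and Galc (0.964).

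For Ltbp3 they were Mxra8 (0.987), Arhgef17 (0.983) and Mfsd10 (0.981), and for Ltbp2 Meaf6 (0.977), Flna, an actin crosslinker (0.971), and C2cd2l (0.967). Tgfbr2 was nearest to Nabp1 (0.968), Antxr1 (0.967) and Esm1, an endothelial proteoglycan (0.956). Tgfbr1 was nearest to Btg2 (0.972), Mbnl2 (0.965) and Atp8b2 (0.964), Tgfbr3 to Dido1 (0.966), Itsn2 (0.966) and Cep120 (0.960), and Tgfb1 to Colgalt1, a collagen glycosyltransferase (0.955), Smox (0.951) and Ccdc34 (0.950). Tgfb2 lay under 1 CPM and was not compared.

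Around the members, 100 of 109 listed pathway genes were tested, and 0 were called higher and 0 lower by edgeR. Of the 100, 72 were negative and the median log2 fold change was -0.082, while 4 had an unadjusted p under 0.05, where 2.36% of all genes did. In 3 of the 100 the groups did not overlap, where 1.53% of all genes did.

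Among the proteins that anchor or free latent TGF-beta, 14 of 16 were negative, with a median of -0.060. Lrrc32 (GARP), which holds latent TGF-beta on the cell surface, had 13.3, 11.2, 10.3 and 13.9 CPM in control replicates 1 to 4, and 9.41, 9.996, 9.12 and 9.65 CPM in HSC-PCK1-KO replicates 1 to 4, groups that did not overlap. Its log2 fold change was -0.35 (SE 0.10), with edgeR's adjusted p at 0.9998. Lrrc32 was the 1 gene of these 16 whose groups did not overlap, where 1.53% of all genes tested had such groups. Mmp9, a protease, and Itgb8, an integrin chain that binds latent TGF-beta, had log2 fold changes of -0.70 (SE 0.35) and 0.41 (SE 0.37). Both were scarce and their groups overlapped, with means for control and HSC-PCK1-KO of 0.75 and 0.47 CPM for Mmp9 and 0.40 and 0.53 CPM for Itgb8.

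Microfibril and elastic fibre partners of the LTBPs were negative in 13 of 15, with a median of -0.21. Fn1, fibronectin, to which LTBPs are first anchored, stood at 1752 ± 185 CPM for control and 1518 ± 70.7 CPM for HSC-PCK1-KO (SD, n = 4), with groups that did not overlap and a log2 fold change of -0.21. The Fn1 groups almost touched, at 1612 CPM in control replicate 3 and 1602 CPM in HSC-PCK1-KO replicate 2, and edgeR's unadjusted p was 0.063. Hepatocytes also make fibronectin, the plasma form. Efemp1 and Fbln5, of the fibulin family, had log2 fold changes of -0.32 and -0.32. The 4 proteoglycans tested that bind TGF-beta were all negative, Fmod at -0.82, Bgn at -0.20 and Dcn at -0.12 being those with the smallest p.

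Of the genes downstream of the receptors, SMADs and their adaptor were negative in 6 of 9, with a median of -0.054, and those with the smallest p were Smad4 at 0.058, Smad6 at -0.10 and Zfyve9 at -0.054. Negative regulators were negative in 7 of 11, with a median of -0.0069, Tgif1, Smurf1 and Fkbp1a standing at 0.24, -0.11 and 0.086. Response genes of the pathway were negative in 15 of 20, with a median of -0.15, and Snai1, Id1 and Postn stood at -0.35, 0.46 and -0.21.

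Accessory and other receptors of the superfamily were negative in 6 of 9, with a median of -0.036. Bambi, a decoy receptor without a kinase, stood at 0.33, Eng (endoglin, of endothelium) at -0.13 and Acvr2b at -0.17. The other ligands and their soluble antagonists were negative in 10 of 19, with a median of -0.043. Inhba, the activin A subunit, stood at 10.6 ± 1.04 CPM for control and 8.39 ± 0.99 CPM for HSC-PCK1-KO (SD, n = 4) and overlapped by 1 control library. Bmp4 had a log2 fold change of -0.44 and Bmp7 one of 0.42 (SE 0.20, edgeR's unadjusted p 0.063). The Bmp7 groups did not overlap but almost touched, the highest control library being at 0.893 CPM and the lowest HSC-PCK1-KO library at 0.894 CPM. Mstn, Nog and Grem1 had 0 counts in all 8 libraries.

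**Figure D5:**
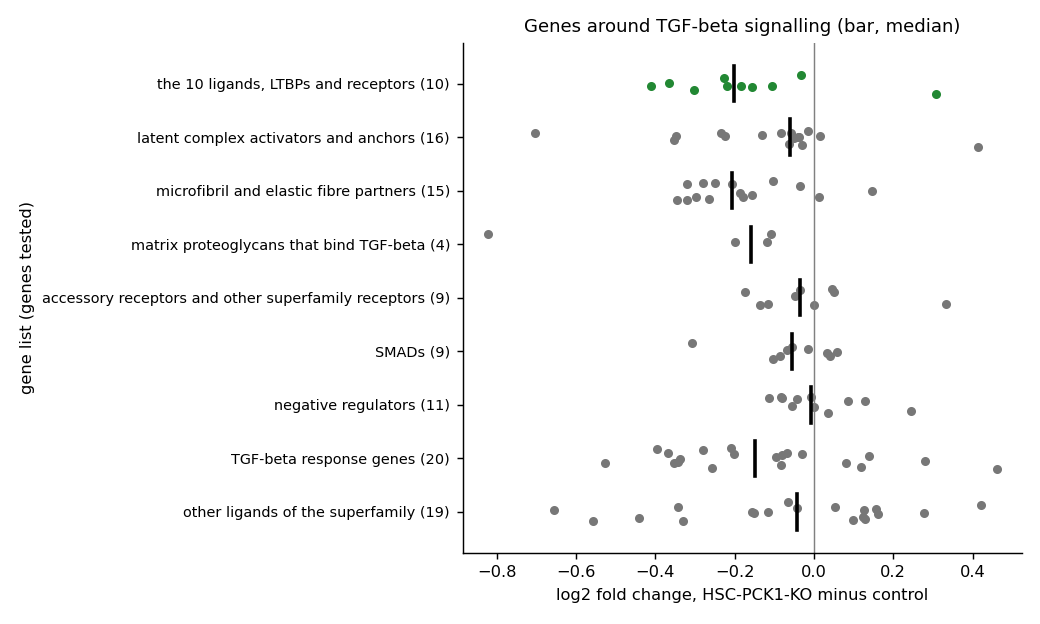
Log2 fold change (HSC-PCK1-KO minus control) of the 10 members (green) and of the genes of 8 lists around TGF-beta signalling (grey), 1 point per gene and a black bar for the median of each list. The bars of the members (-0.20) and of the microfibril partners (-0.21) lie farthest to the left, and that of the negative regulators (-0.0069) lies nearest to 0.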

How the data were processed

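The authors deposited raw counts per gene, 1 whole number for each of 56953 Ensembl identifiers in each library, not normalized. Per the labels' protocols, oligo(dT)-selected RNA gave strand-specific paired-end reads of 100 bases. Per the submitters' processing notes the build was GRCm39 and R 4.3.2 was used. No source used here gives the aligner, the counter, its strand setting or the annotation. Symbols (52029 identifiers), exon lengths and exon overlaps came from GENCODE M21, a GRCm38 annotation.

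edgeR 4.0.16 in R 4.3.3 (filterByExpr, TMM factors, robust quasi-likelihood F-test, genotype as single term) was fitted to all 15669 genes kept, with Benjamini-Hochberg adjustment over them and a threshold of 0.05. Alternatives were other scaling factors, other filters, non-robust dispersion, limma 3.58.1 (voom), DESeq2 1.42.0, a replicate block, a threshold of 0.1, and leaving out each library. Log2 CPM used a prior count of 2. The code was tested on simulated data. No pair of libraries in a group was a copy (chi-square per degree of freedom at least 44.4).

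The members and lists were chosen with earlier results of these data known. The rule for named genes took the members, Pck1, the 3 genes of smallest p in each pathway list, and for each member with a mean of at least 1 CPM the 3 genes most like it. 1 result on exon overlap, beside those given, is not reported here.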

Additional observations from a re-analysis of the deposited data

How the results depend on the processing

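The 10 members gave 159 fold changes under the alternatives, of which 155 kept direction and side of the threshold, 4 turned direction and 0 passed. Those that turned were Tgfb1 (0.042), Ltbp2 (0.12) and Tgfbr1 (0.026) without control replicate 4, and Tgfbr1 (0.015) without HSC-PCK1-KO replicate 1. The cause was not tested. Leaving out 1 library gave -0.24 to 0.042 for Tgfb1, -0.38 to 0.12 for Ltbp2 and -0.077 to 0.026 for Tgfbr1. Tgfb2 had no value when 4 libraries had to reach 1 CPM, which removes it. With all 8 libraries, the count of genes past the threshold was 0 in edgeR, with 370 at an unadjusted p under 0.05, 0 in limma, with 371, and 6 in DESeq2, with 366, none of the 6 being a member. Leaving out 1 library gave 0 to 1, the 1 being without control replicate 1, and 248 to 502 genes at an unadjusted p under 0.05. The members past the threshold were 0 throughout (1 to 2 at an unadjusted p under 0.05, Ltbp4 always having a negative value), as were the pathway genes (2 to 8). The number of negative members was 6 to 9 with 1 library left out. Of the per-length ranks, 6 of 10 were kept in control with the longest transcript as the length.

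Nothing in the labels says that the replicate numbers of the titles pair the libraries. Same-numbered deviations from the group means correlated at -0.329 to 0.0576, within the -0.345 to 0.355 of unlike numbers, which cannot settle whether they do. With a replicate block, 0 genes passed, 0 of them members, 311 had an unadjusted p under 0.05, and the fold change of Ltbp4 was -0.41. Depth limits Tgfb2 most, at 16 to 62 counts per library.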
